A study of Mus musculus with 25 samples.

Results

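The genes described here are 10 feedback genes of ERK signalling: the ETS transcription factors Etv1, Etv4 and Etv5, the inhibitors Spry1, Spry2, Spry4 and Spred1, and the MAP kinase phosphatases Dusp4, Dusp5 and Dusp6. They were picked by symbol, and all 10 were found among the 24015 gene symbols of the tumour table and the 24015 of the cell table. The choice was made with the values of both tables in view. Their levels, fold changes and calls are therefore a description, and nothing is rested on them.

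RNA was sequenced in 17 mouse libraries. Of these, 8 came from basal cell carcinomas (BCC) of C57BL6 mice that were Ptch+/- and carried K14 Cre-ER, an inducible Cre driven by the keratin 14 promoter, and p53 fl/fl. The mice were given a Smo inhibitor by mouth, and the labels call 4 tumours sensitive and 4 resistant. The other 9 came from ASZ001, a mouse BCC line that the labels call resistant, with vehicle, CCG-1423 or vismodegib (3 libraries each). Vismodegib blocks Smo, the receptor that turns on the Hedgehog pathway, and CCG-1423 is used as an inhibitor of MRTF, the actin-regulated coactivators of the transcription factor SRF. Every tumour group shares the genotype and the Smo inhibitor, and every cell group is 1 line. No dose, treatment time or age is given in the sources used here. Nor is it stated whether replicates were separate animals or cultures, so a p-value reflects the scatter of these samples alone, and that scatter may be technical.

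ERK is the last kinase of the cascade that runs from growth factor receptors through Ras, Raf and MEK. Active ERK raises a set of genes that act back on the cascade: Sprouty and Spred proteins restrain signalling between the receptor and Raf, and dual-specificity phosphatases remove the activating phosphates from ERK and related kinases. Etv1, Etv4 and Etv5, the PEA3 group of ETS factors, are induced by FGF and EGF receptor signalling and are widely read, with Spry and Dusp6, as transcriptional reporters of it. In skin this pathway acts in the growth and differentiation of keratinocytes.

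Promoter windows of RefSeq (assembly GRCm38.p6, each from 250 bases before to 50 after a transcript start) matched 7 of the 10 genes, in 9 windows; Etv4, Spry4 and Dusp4 were not matched. The 3 stretches of 250 bases upstream that follow are shown because each holds a motif of a factor the study or the gene family bears on. In Dusp5 the capitals mark CArG boxes, the motif of SRF, at bases -82 to -73 and -72 to -63 from the start. In Etv5 they mark CCAAT boxes, a common promoter element. In Dusp6 they mark an ETS motif read on the other strand. The stretches are Dusp5 at chr19:53528895-53529144 (+ strand), Etv5 at chr16:22439571-22439820 (- strand) and Dusp6 at chr10:99262981-99263230 (+ strand).
Dusp5: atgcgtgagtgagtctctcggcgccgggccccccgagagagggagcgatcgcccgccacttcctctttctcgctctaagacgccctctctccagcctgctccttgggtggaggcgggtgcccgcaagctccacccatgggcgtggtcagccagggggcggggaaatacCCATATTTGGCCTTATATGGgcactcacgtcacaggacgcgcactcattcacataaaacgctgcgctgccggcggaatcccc
Etv5: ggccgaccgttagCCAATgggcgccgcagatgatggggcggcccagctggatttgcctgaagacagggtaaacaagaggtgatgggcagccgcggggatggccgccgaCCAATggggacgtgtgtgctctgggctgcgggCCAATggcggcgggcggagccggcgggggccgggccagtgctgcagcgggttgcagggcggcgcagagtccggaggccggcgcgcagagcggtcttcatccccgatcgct
Dusp6: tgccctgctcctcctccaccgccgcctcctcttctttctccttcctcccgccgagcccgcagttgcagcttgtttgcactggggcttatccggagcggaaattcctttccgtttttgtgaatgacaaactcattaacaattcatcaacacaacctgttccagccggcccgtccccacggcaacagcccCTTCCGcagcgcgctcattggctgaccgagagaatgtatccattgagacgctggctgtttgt

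Motifs were searched on both strands of each window of 300 bases, and none of the matches overlapped another motif. The CArG box was found in 1 of the 9 windows of these genes, with 2 adjoining copies in Dusp5, and in 1.63% of all 32851 RefSeq windows. The ETS motif CGGAAG was found in 2 of 9 windows, Dusp6 and Spred1, and in 16.9% of all windows. CCAAT was found in 4 of 9, with 3 copies in the Etv5 window shown, and in 37.4% of all. The AP-1 motif TGANTCA, the C/EBP-ATF motif TGATGNAA and the GLI motif GACCACCCA were in none of the 9 and in 7.81%, 3.97% and 0.253% of all windows. A match describes letters in the window and nothing more.

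Values are the authors' normalized read counts, whole reads divided by 1 factor per library, so a gene's level can be compared between libraries of 1 table but not with that of another gene of other length. Reads at genes numbered 30455530 to 44017757 per cell library, 17537094 to 20014426 per resistant tumour, and 8111252 to 11125956 for the first 3 sensitive tumours but 14161398 for the fourth. The library of sensitive tumour 4 stood apart from its group. On the first principal component, which held 65.9% of the variance, it scored 66.0, beside 48.3 to 65.4 for resistant tumours and -98.1 to -88.7 for sensitive tumours 1 to 3. It also held no reads of 4 Y-linked genes, as did all resistant tumours, where sensitive tumours 1 to 3 held 1391 to 2174. Xist was not absent from sensitive tumours 1 to 3, at 1252 to 2939 normalized counts. It stood at 60770.5 in sensitive tumour 4 and at 61076 to 80520.5 in resistant tumours. Tumour results are given with and without sensitive tumour 4. Without it, group and sex as read from the Y-linked genes coincide, so sex and resistance cannot be told apart there. With all tumours kept, it is the only sensitive tumour without Y-linked reads, so sex and resistance stay largely confounded there too.

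In ASZ001 cells, all 10 genes were higher with CCG-1423 than with vehicle, and the largest differences were in Etv5, Dusp4, Etv4 and, over few vehicle reads, Spry4. Their 3 values with CCG-1423 lay above all 3 vehicle values in each of the 10 genes. With vismodegib the log2 fold changes over vehicle ran from -0.45 (Dusp5) to 0.40 (Dusp4), and none passed the test. A gene was called where limma's adjusted p was under 0.05 in a fit over all tested genes (normalized count of at least 10 in at least 3 cell libraries). All 10 genes passed this filter in the cells, but Etv1 and Spry4 did so only through the CCG-1423 libraries and had to differ. The background was wide: with CCG-1423 42.8% of the 12775 genes tested were called higher and 42.6% lower, and in 43.0% the groups did not overlap with CCG-1423 higher.

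Etv5 and Etv4 had the largest changes among the ETS factors. Etv5 stood at 57.2, 40.4 and 50.9 normalized counts in vehicle libraries 1 to 3 and at 2556, 2292 and 2420.0 with CCG-1423. With vismodegib its levels were 53.7, 32.9 and 38.8. The CCG-1423 libraries were the 3 high ones, and the vehicle and vismodegib values interleaved. The mean rose from 49.5 ± 8.46 (SD, n = 3) to 2423 ± 132 (SD, n = 3), a log2 fold change of 5.60 ± 0.16 (SE of the fit), while vismodegib minus vehicle was -0.25 ± 0.16.

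Etv4 showed the same arrangement. Its vehicle levels were 76.8, 85.1 and 64.5, its CCG-1423 levels 2032, 1841 and 2108 and its vismodegib levels 80.5, 65.8 and 67.4. The log2 fold change was 4.71 ± 0.11 with CCG-1423 and -0.08 ± 0.11 with vismodegib. Etv1, the third factor of the PEA3 group, was near the limit of detection in vehicle cells. It had 5 reads in the 3 vehicle libraries together, at 0.817, 1.06 and 3.40 normalized counts, and 44 reads with CCG-1423, at 12.3, 14.7 and 14.8. The ratio of reads per normalized library was 8.57, with a 95% interval of 3.41 to 27.7 that covers counting error only. With vismodegib it had 7 reads, at 3.36, 0.967 and 3.07, which overlap the vehicle values.

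Spry4, a Sprouty inhibitor of receptor signalling, was all but undetected without CCG-1423. It had 2, 1 and 0 reads in the vehicle libraries and 1, 1 and 0 with vismodegib, so no fold between these is given. With CCG-1423 it had 91, 109 and 110 reads, which is 101.7, 94.3 and 102.0 normalized counts. The ratio to vehicle was 101 with a 95% counting interval of 34.1 to 491. The fitted log2 fold change of 5.83 ± 0.46 depends on the count of 1 added before taking logs and is no bound.

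Spry1 and Spry2, which were present in every cell library, were also higher with CCG-1423. Spry1 stood at 62.1, 55.3 and 54.3 with vehicle, 418, 504 and 475 with CCG-1423 and 54.8, 66.7 and 49.0 with vismodegib. Spry2 stood at 179, 195 and 197 with vehicle, 678, 752 and 788 with CCG-1423 and 207, 198 and 228 with vismodegib. Spred1, a membrane-bound inhibitor of Ras and Raf activation, was at 1651, 1580.4 and 1633 with vehicle, 4207, 3863 and 3970.3 with CCG-1423 and 1674, 1507 and 1578 with vismodegib. Each gene's 3 CCG-1423 libraries were the high ones. The log2 fold changes with CCG-1423 were 3.0 ± 0.13 for Spry1, 1.95 ± 0.08 for Spry2 and 1.31 ± 0.04 for Spred1. With vismodegib the 3 Spry2 values lay just above those with vehicle, at a log2 fold change of 0.15 ± 0.08 that did not pass the test, and Spry1 (-0.02 ± 0.13) and Spred1 (-0.03 ± 0.04) overlapped.

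Among the phosphatases, Dusp4, a nuclear phosphatase of ERK and JNK, differed most. It stood at 29.4, 24.5 and 22.6 with vehicle and at 769.9, 897 and 858 with CCG-1423, a log2 fold change of 5.0 ± 0.14. Its vismodegib levels of 38.0, 30.9 and 32.7 lay above all 3 vehicle levels, with a log2 fold change of 0.40 ± 0.14 that did not pass the test over all genes. Dusp6, the cytoplasmic phosphatase specific for ERK, stood at 387, 341 and 295 with vehicle, at 1694, 1994 and 2027 with CCG-1423 and at 319.8, 336 and 326 with vismodegib. The CCG-1423 values were again apart and the other groups overlapped; the log2 fold changes were 2.48 ± 0.09 and -0.05 ± 0.09.

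Dusp5, a nuclear phosphatase specific for ERK and the gene whose promoter holds the 2 CArG boxes, changed least of the phosphatases. It stood at 30.2, 43.6 and 35.1 with vehicle and at 111.7, 76.1 and 77.9 with CCG-1423, a log2 fold change of 1.26 ± 0.21. With vismodegib it stood at 30.2, 20.3 and 28.6, and its highest value there lay just under the lowest vehicle value. That log2 fold change was -0.45 ± 0.21 and did not pass the test.

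**Figure D1:**
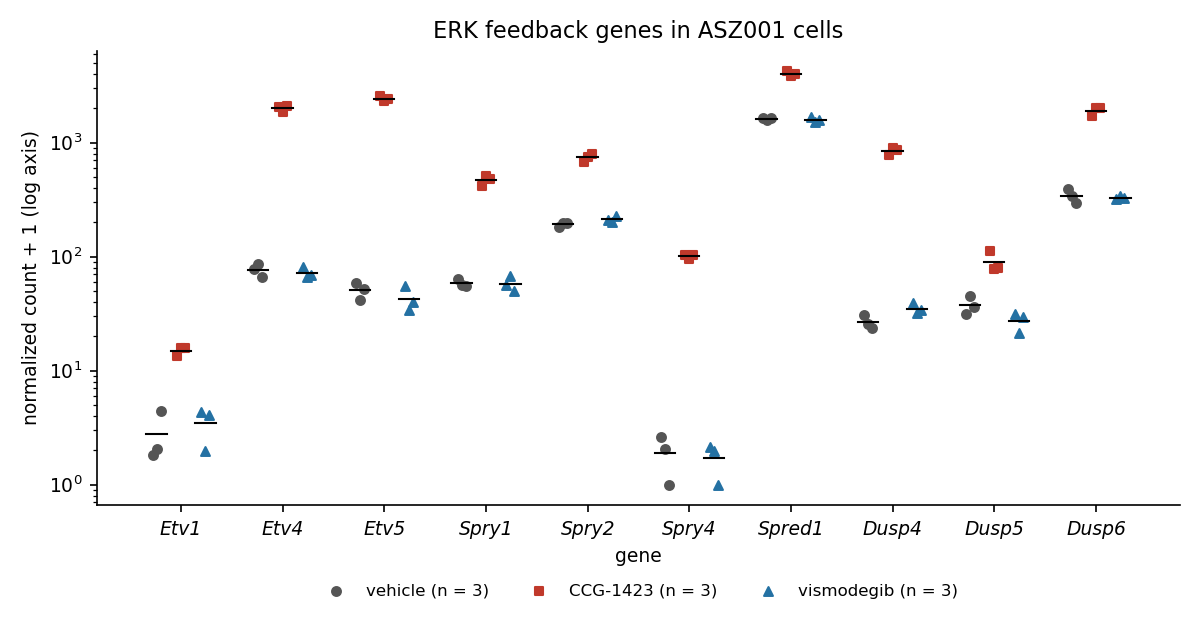
Normalized count plus 1 (log axis) of each of the 10 genes in the 9 ASZ001 libraries: grey circles vehicle, red squares CCG-1423, blue triangles vismodegib, with a bar at each group's mean. The 3 CCG-1423 libraries lie above the 3 vehicle libraries in all 10 genes, while vehicle and vismodegib lie at like heights.

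By the log2 fold change of CCG-1423 over vehicle, the order of the 8 genes with more than 5 vehicle reads was Etv5, Dusp4, Etv4, Spry1, Dusp6, Spry2, Spred1 and Dusp5. It was the same with 5 added before taking logs in place of 1. Dusp4 and Etv4 differed by 0.28 ± 0.18 (SE) and Spred1 and Dusp5 by 0.05 ± 0.22, so neither pair of neighbours differed by 2 SE. The steps from Etv4 to Spry1 (1.71 ± 0.17) and from Spry2 to Spred1 (0.65 ± 0.09) were many times their errors. Each such SE joins those of the 2 genes as if independent, though both were read in the same libraries, so it is approximate. Spry4 and Etv1 have no fixed place in this order, since their fitted values of 5.83 and 2.55 became 4.15 and 1.5 with 5 added; Spry4 then stood below Etv4 and Etv1 below Spry2. Among the 12775 genes tested, ordered from the most raised with 1 added, Etv5 was the eighth, Dusp4 number 18 and Etv4 number 26, while Spred1 and Dusp5 were numbers 951 and 1008. The median over the 10 genes was 2.77, beside 0.00 over all genes tested.

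The count of calls with vismodegib was 0 of 10 by limma, against 1.58% of all genes called higher and 3.92% lower. Of the 10, only Dusp4 had an unadjusted p under 0.05 by limma, as had 2357 of all 12775 genes tested. edgeR and DESeq2 each called 0 of the 10, with 0 at an unadjusted p under 0.05, and 739 and 693 of all genes. The groups did not overlap in 3 genes, Spry2 and Dusp4 with vismodegib higher and Dusp5 with vismodegib lower, where 16.0% and 14.0% of all genes do so in the 2 directions. Approximate 95% intervals of the log2 fold change were taken from the normal distribution, which makes them narrower than limma's own test implies. Without adjustment over genes, they excluded 0 for Dusp4 (0.13 to 0.67) and Dusp5 (-0.87 to -0.03), though by limma's test Dusp5 was not under 0.05. They spanned 0 for the other 8, among them Spred1 (-0.12 to 0.05), Dusp6 (-0.22 to 0.12), Spry1 (-0.27 to 0.24), Etv4 (-0.30 to 0.14), Etv5 (-0.56 to 0.05) and Spry2 (-0.01 to 0.31). The library scaling mattered here: with every library set to the same total, 2923 genes were called higher and 306 lower in place of 202 and 501, the sign was positive in 7 of the 10 genes in place of 3, and Dusp4 was called. The share of reads at Rn45s, a ribosomal RNA gene, was 1.39% to 1.58% with vismodegib and 5.81% to 6.70% with vehicle; with Rn45s and Lars2 left out of the totals, 173 genes were called higher, 480 lower and none of the 10.

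The 2 compounds were also compared directly, in the same fit. All 10 genes were called higher with CCG-1423 than with vismodegib, where 42.4% of all genes were called higher and 42.4% lower, and in 42.6% of all genes CCG-1423 lay above vismodegib without overlap. Spry4 aside, the log2 differences ran from 1.34 ± 0.04 in Spred1 and 1.71 ± 0.21 in Dusp5 to 4.79 ± 0.11 in Etv4 and 5.85 ± 0.16 in Etv5. Dusp4 differed by 4.60 ± 0.14, Spry1 by 3.02 ± 0.13, Dusp6 by 2.53 ± 0.09, Etv1 by 2.19 ± 0.50 and Spry2 by 1.80 ± 0.08. Spry4 had 310 reads against 2, and its fitted difference, the largest of the 10 at 5.96 ± 0.46, depends on the count of 1 added.

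Markers of the cell type were checked in the same libraries. The basal keratinocyte genes Krt5 and Krt14 were abundant, and the markers of other cells were in part at background and in part present. At most 3 reads in each group were found for 3 of 5 macrophage genes (Ptprc, Lyz2 and Emr1), 2 of 5 endothelial genes (Cdh5 and Kdr), 3 of 4 neutrophil genes (S100a9, Csf3r and Retnlg), all 5 T cell genes and 3 of 7 melanocyte and Schwann cell genes (Dct, Mlana and Sox10). Other genes of the same lists were present: Cd68 stood at 393 to 441 normalized counts with vehicle, 774 to 936 with CCG-1423 and 364 to 443 with vismodegib. Csf1r, of the same macrophage list, went the other way with CCG-1423, at 19.2 to 19.6, 2.23 to 4.33 and 21.3 to 29.1. Of the 2 macrophage genes tested, 1 was called higher and 1 lower with CCG-1423 than with vehicle. Flt1 stood at 1623 to 1725, 2372 to 2619 and 1771 to 1961, and Pecam1 at 870.3 to 899, 265 to 313 and 655 to 782. The endothelial list summed to 2515 to 2614 with vehicle, 2689.8 to 2925 with CCG-1423 and 2440.2 to 2676 with vismodegib, and the macrophage list to 413 to 461, 778 to 941 and 386 to 464. The summed keratinocyte list was lower with CCG-1423. Its 7 genes summed to 227922 to 236615 normalized counts, against 1186268 to 1208702 with vehicle and 1121678 to 1142996 with vismodegib, and 5 of the 7 fell and 2 rose by limma. The part of these shifts in the feedback genes' values was not tested.

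The other genes of the pathway were read from 7 lists of 91 genes in all. With CCG-1423, 42.8% of all genes tested were called higher than vehicle and 42.6% lower, the shares to set beside each count below. With CCG-1423 the ligands and receptors of the EGF family stood higher than vehicle in 9 of the 11 genes tested and lower in 1. Their median log2 fold change was 1.39. Among the 11, Areg (at most 4.90 with vehicle) and Egf (at most 9.58) needed the CCG-1423 libraries to pass the filter and so had to differ. Ereg, the EGF receptor ligand epiregulin, rose from 16.5 ± 5.07 to 419 ± 97.7 normalized counts (log2 fold change 4.60 ± 0.24, limma adjusted p = 4.6e-11). Nrg1, the neuregulin ligand of Erbb3 and Erbb4, rose by 2.48 ± 0.10 and Epgn, epigen, by 2.13 ± 0.11, while the co-receptor Erbb2 fell by 0.96 (SE 0.03). The FGF list was split, with 5 of 12 higher and 7 lower. Fgf21, a metabolic FGF, rose by 4.10 ± 0.19 and Fgfr1 by 1.08 ± 0.04; Fgfr2, the epithelial FGF receptor, fell by 1.90 (SE 0.03) and the ligands Fgf1 and Fgf5 fell by 1.54 (SE 0.08) and 1.09 (SE 0.05).

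The kinases and adaptors of the cascade itself were split too, with 9 of 20 higher, 10 lower and a median of -0.07. That is near the shares over all genes, 42.8% higher and 42.6% lower. Ksr1, the scaffold that holds Raf, MEK and ERK together, rose from 35.8 ± 3.84 to 299 ± 7.07 (log2 fold change 3.03 ± 0.13, limma adjusted p = 4.9e-12). Araf fell by 1.45 (SE 0.05) and Map2k2, which encodes MEK2, fell by 0.76 (SE 0.03). Other genes that ERK is known to raise were higher in 7 of 8 and lower in 1. Epha2 rose by 1.96 ± 0.05, Ier3 by 1.96 ± 0.06 and Myc by 1.09 ± 0.03, and Epha4 fell by 1.92 (SE 0.04).

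Further members of the inhibitor families moved both ways, where 42.8% of all genes were called higher and 42.6% lower. Of the other MAP kinase phosphatases, 4 of 7 were higher and 2 lower: Dusp1 rose from 427 ± 13.9 to 2467 ± 352 (log2 fold change 2.52 ± 0.08, limma adjusted p = 1.6e-13), Dusp16 rose by 0.81 ± 0.04, and Dusp10, which acts on p38 and JNK, fell by 1.07 (SE 0.09). Of the other inhibitors of receptor and Ras signalling, 8 of 11 were higher and 3 lower. Rasa2 and Nf1, which switch Ras off, rose by 1.35 ± 0.10 and 0.91 ± 0.05, and Errfi1, an inhibitor of the EGF receptor, rose by 0.94 ± 0.06. Spred3, a relative of Spred1, fell by 1.39 (SE 0.19). Of 12 other ETS factors 7 were higher and 3 lower; Ets1 rose by 1.40 ± 0.05 and Elk1, a cofactor of SRF, fell by 0.54 (SE 0.05).

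With vismodegib 6 of the pathway genes were called, where 1.58% of all genes were called higher and 3.92% lower. The 6 were Fgf5, Ccnd1, Epha4, Elk4 and Dusp7, all lower, and Dab2ip, higher. Fgf5 fell by 0.95 (SE 0.05, limma adjusted p = 1.7e-08) and Ccnd1, which encodes cyclin D1, fell by 0.53 (SE 0.06, limma adjusted p = 5.3e-05). Epha4 fell by 0.22, and the SRF cofactor Elk4 fell by 0.49. Dusp7 (-0.16) and Dab2ip (0.17) lost their calls when any of several single libraries was left out, Dusp7 also with the same total per library. Neither the EGF family nor the cascade had a called gene, with 0 and 1 at an unadjusted p under 0.05. By limma 2357 of all 12775 genes tested had such a p. For the EGF family and the cascade, edgeR and DESeq2 gave the same counts. Compared directly, CCG-1423 and vismodegib gave the counts of the vehicle comparison for 6 of the lists, and 9 higher and 3 lower for the ETS factors.

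**Figure D2:**
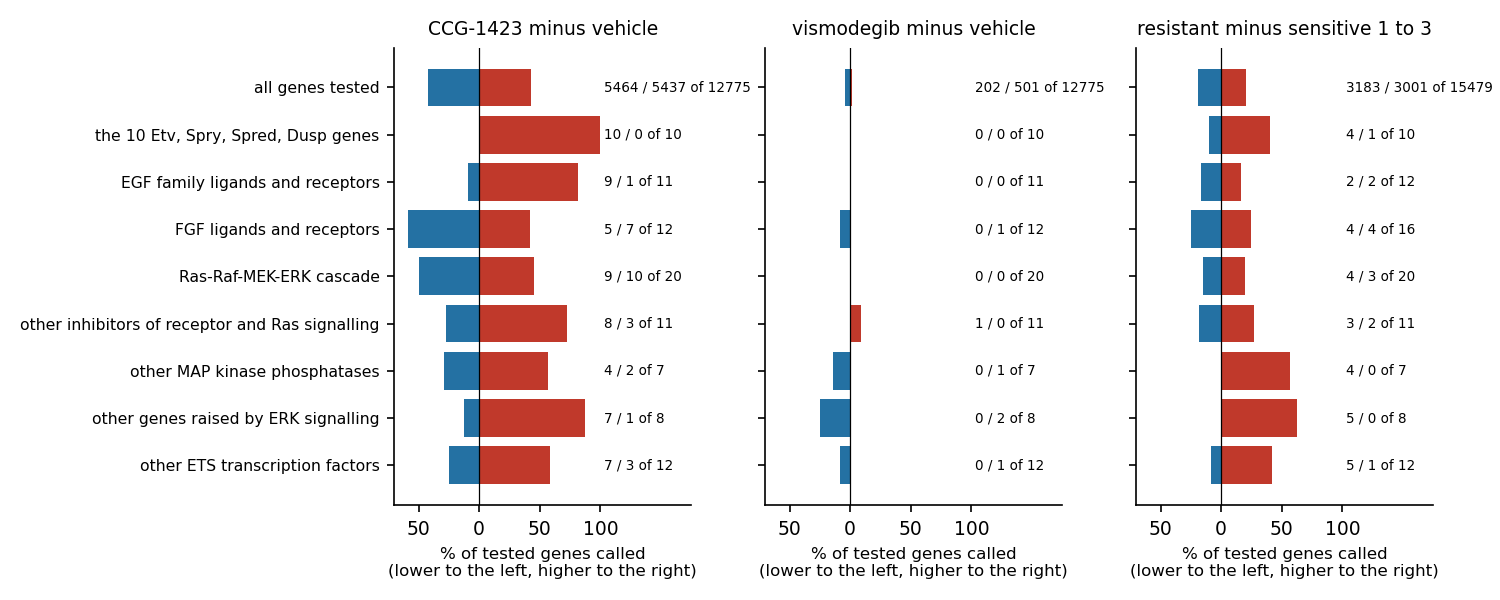
Percent of tested genes called lower (blue, to the left) and higher (red, to the right) among all genes, the 10 feedback genes and 7 lists of other pathway genes, for CCG-1423, vismodegib and resistant tumours against sensitive tumours 1 to 3. The figures beside the bars are the counts higher and lower of the genes tested. With CCG-1423 the bars for the 10 genes, the other genes that ERK is known to raise and the EGF family reach furthest right.

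In the tumours, the resistant group was compared with the sensitive one, and none of the 10 genes passed the test with all 8 libraries. The signs were mixed: Dusp4, Spry4, Dusp6, Etv1 and Spry2 had higher means in resistant tumours, and Spry1 and Etv5 lower means. For Dusp6 alone the groups did not overlap. The median log2 fold change was 0.78 with 8 of 10 positive, beside 0.03 over all 15076 genes tested, and all 10 passed the filter of at least 10 normalized counts in at least 4 tumours. The background was 0.0332% of genes called higher and 0.0796% lower by limma, and in 3.90% of genes the groups did not overlap with resistant tumours higher. Of the 10 genes, 5 had an unadjusted p under 0.05 by limma, as had 3789 of all 15076 genes tested. By edgeR 2 of the 10 had such a p, and it called 0 of the 10 and 0 of all genes. DESeq2 called 2 of the 10 higher, Spry2 and Dusp6, and 1630 of all genes in both directions together. In whole tumours, fewer cells of a type and less RNA per cell cannot be told apart.

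Dusp6 stood at 661, 995, 578 and 958 normalized counts in sensitive tumours 1 to 4 and at 2133, 1796, 1384 and 1374 in resistant tumours 1 to 4. Every resistant tumour was above every sensitive one. The means were 798 ± 209 (SD, n = 4) and 1672 ± 365 (SD, n = 4), a log2 fold change of 1.08 ± 0.23.

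Dusp4 and Spry4 were low in sensitive tumours 1 to 3 and high in the other 5 libraries. Dusp4 stood at 66.8, 79.1, 79.5 and 450.0 in the sensitive tumours and at 411, 479.9, 315 and 393 in the resistant ones. Spry4 stood at 219, 233, 149 and 1500.1 in the sensitive tumours and at 1008, 1801, 1645 and 764 in the resistant ones. Sensitive tumour 4 fell inside the resistant range for both. With it, the log2 fold changes were 1.74 ± 0.56 for Dusp4 and 1.91 ± 0.66 for Spry4. Dusp5 was low throughout, at 24.2, 21.2, 19.9 and 47.6 in sensitive and 79.6, 28.9, 49.1 and 21.6 in resistant tumours, and the groups overlapped (0.57 ± 0.47).

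The 3 ETS factors did not follow 1 pattern. Etv1 stood at 41.4, 29.7, 48.0 and 121.6 in sensitive and 84.8, 118.5, 92.7 and 138.8 in resistant tumours, again with sensitive tumour 4 inside the resistant range (1.03 ± 0.42). Etv4 stood at 92.1, 209, 212 and 284 in sensitive and 393, 296, 297 and 217 in resistant tumours (0.67 ± 0.35). Etv5 was highest in sensitive tumours 1 and 2: it stood at 2009.7, 1573, 732 and 516 in sensitive and 797, 991, 919.5 and 524 in resistant tumours. Its log2 fold change was -0.41 ± 0.43, with the groups overlapping.

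Spry1 and Spry2, close relatives, had fold changes of opposite sign. Spry1 stood at 471, 663, 512 and 195 in sensitive and 119.8, 432, 285 and 201 in resistant tumours (-0.85 ± 0.47). Spry2 stood at 165, 239, 174 and 155 in sensitive and 498, 416, 292 and 215 in resistant tumours (0.90 ± 0.29), and resistant tumour 4 lay below sensitive tumour 2. Spred1 was level, between 3301 and 3714 in sensitive and between 3056 and 4292 in resistant tumours. Its log2 fold change of 0.04 ± 0.16 turned to -0.07 with every library set to the same total.

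**Figure D3:**
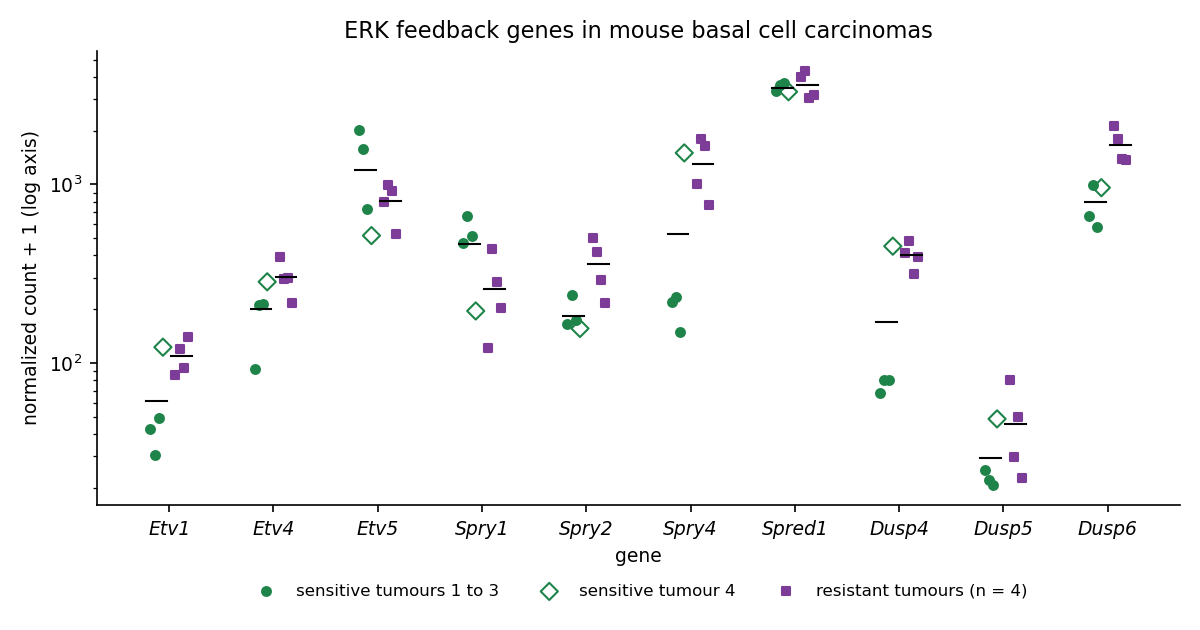
Normalized count plus 1 (log axis) of each of the 10 genes in the 8 tumour libraries: green circles sensitive tumours 1 to 3, open diamonds sensitive tumour 4, purple squares resistant tumours, with a bar at each group's mean (sensitive tumour 4 included). For Etv1, Spry4 and Dusp4 the open diamond lies among the purple squares, and for Dusp6 alone all squares lie above all green symbols.

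Without sensitive tumour 4, 4 of the 10 genes were called higher in resistant tumours and 1 lower, in a background of 20.6% of genes called higher and 19.4% lower. Spry4 was higher by 2.64 ± 0.32 on the log2 scale, Dusp4 by 2.38 ± 0.20, Etv1 by 1.43 ± 0.28 and Dusp6 by 1.18 ± 0.23, and Spry1 differed by -1.21 ± 0.39. In normalized counts, Spry4 averaged 200.3 ± 45.0 in sensitive tumours 1 to 3 and 1305 ± 498 in resistant tumours, and Dusp4 averaged 75.1 ± 7.24 and 399.8 ± 67.9 (SD, n = 3 and 4). Groups did not overlap in 5 genes with resistant tumours higher (Etv1, Etv4, Spry4, Dusp4 and Dusp6) and in Spry1 with resistant tumours lower, where 24.3% and 23.3% of all genes do so. Etv4 (0.88 ± 0.33), Spry2 (0.83 ± 0.30), Dusp5 (0.84 ± 0.45), Etv5 (-0.75 ± 0.35) and Spred1 (0.02 ± 0.16) were not called. edgeR on the recovered reads of these 7 tumours called 5 genes, all higher: Etv1, Spry4, Dusp4 and Dusp6 as by limma and Spry2, but not Spry1.

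Markers of some other cells moved with the same split of the tumours. The neutrophil genes found in the table (4 of 5 listed) summed to 5154 to 7653 normalized counts in resistant tumours and to 396 to 791 in the first 3 sensitive ones, with 14795 for sensitive tumour 4, and all 4 were called higher without sensitive tumour 4. The keratinocyte genes, Krt5 and Krt14 among them, summed to 35659 to 86939 in resistant tumours and to 126569 to 186893 in the first 3 sensitive ones, with 84366 for sensitive tumour 4. The 7 genes of the list did not move together: without sensitive tumour 4, 4 were called lower and 2 higher. The Hedgehog targets Gli1 and Ptch1 stood at 1456 to 3541 and 1166 to 3392 in resistant tumours and at 532 to 649 and 165 to 548 in sensitive tumours 1 to 3. The macrophage genes summed to 10093 to 21179 in the sensitive and 7007 to 79674 in the resistant tumours, with none of 5 called, and 2 of 5 endothelial genes were called higher without sensitive tumour 4. The summed fibroblast genes overlapped, at 64299 to 136005 in sensitive and 77399.8 to 117394 in resistant tumours, but 2 of 6 were called lower without sensitive tumour 4. Dcn stood at 3215 to 9705 in resistant tumours and 13290 to 14671 in sensitive tumours 1 to 3. In that comparison 4 of the 6 fibroblast genes had a positive fold change, and 0 were called higher. Col1a1, among those 4, stood at 30928 to 41647 in resistant tumours and 12994 to 39319 in sensitive tumours 1 to 3. Skeletal muscle genes summed to 63.5 to 689.9 in resistant tumours and 23.2 to 48.3 in sensitive tumours 1 to 3, with 1 of 2 tested called higher. T cell genes summed to at most 363, with Cd3d at 0 in sensitive tumours 1 to 3 and Cd3g at 0 in the resistant tumours. The melanocyte and Schwann cell genes summed to 278 to 352 in resistant tumours and 427 to 478 in sensitive tumours 1 to 3, with 2 of 6 tested called lower. Within that list Dct was at most 0.874 in resistant tumours and 26.8 to 39.7 in sensitive tumours 1 to 3, while Pmel was at 49.5 to 111.8 and 36.4 to 67.9. The part of these cells in the feedback genes' levels was not tested.

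Of the other pathway genes, only Fgf23 was called with all 8 tumours (limma adjusted p = 0.049). It had 2 reads in the 4 sensitive tumours together, at 0 to 1.41 normalized counts, and 159 in the resistant ones, at 17.0 to 56.0. It passed the filter only through the resistant tumours and so had to differ, and its log2 fold change of 4.27 ± 0.59 depends on the count of 1 added. That call was lost under 13 of 17 alternatives, with adjusted p of 0.053 to 0.22 there. Without sensitive tumour 4 the outputs of ERK were higher in 5 of 8 genes tested and lower in none. Of all 15479 genes, 20.6% were called higher and 19.4% lower. The median log2 fold change was 1.24 for the ERK outputs and 0.02 over all genes. Ccnd1 rose by 2.38 ± 0.36 (limma adjusted p = 0.0016), Fosl1, an AP-1 subunit, by 2.23 ± 0.39 (limma adjusted p = 0.0029) and Myc by 1.23 ± 0.18 (limma adjusted p = 0.0012). Of the other phosphatases 4 of 7 were higher and none lower. Dusp1 rose by 1.29 ± 0.22, Dusp16 by 0.73 ± 0.17 and Dusp2, from a low level, by 2.28 ± 0.71. Dusp2 stood at no more than 9.21 in sensitive tumours 1 to 3. It passed the filter only through the resistant tumours and so had to differ.

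The remaining lists were divided in the same 7 tumours, where 20.6% of all genes were called higher and 19.4% lower. Of 11 inhibitors 3 rose and 2 fell; Spred2 rose by 1.27 ± 0.16 and Nf1 by 0.71 ± 0.12, and Dab2ip, an inhibitor of Ras, fell by 1.27 (SE 0.18). Of the 20 cascade genes 4 rose and 3 fell: Ksr1 rose by 1.09 ± 0.15 and Map2k1, which encodes MEK1, by 0.77 ± 0.23, while Mapk3, which encodes ERK1, fell by 0.76 (SE 0.17). The FGF list had 4 of 16 higher and 4 lower, and Fgf23, with the limit given above, was among the higher. Fgf5 was up by 2.32 ± 0.48, Fgf1 up by 1.73 ± 0.46 and Fgf10, a ligand made by stromal cells, lower at -2.16 ± 0.51. In the EGF list 2 of 12 rose and 2 fell. Nrg1 rose by 2.81 ± 0.50 and Erbb2 fell by 0.75 (SE 0.21). Erbb4, the other that rose, stood at no more than 1.66 in sensitive tumours 1 to 3 and passed the filter only through resistant tumours. Btc, the other that fell, stood at no more than 10.5 in resistant tumours and needed the sensitive ones to pass. Both therefore had to differ. Of 12 ETS factors 5 rose, Elk3 by 0.79 ± 0.14 and Etv6 by 0.73 ± 0.14 among them, and Elk4 fell by 0.82 (SE 0.15). Elf3, another of the 5, stood at no more than 3.45 in sensitive tumours 1 to 3. It passed the filter only through the resistant tumours and so had to differ.

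**Figure D4:**
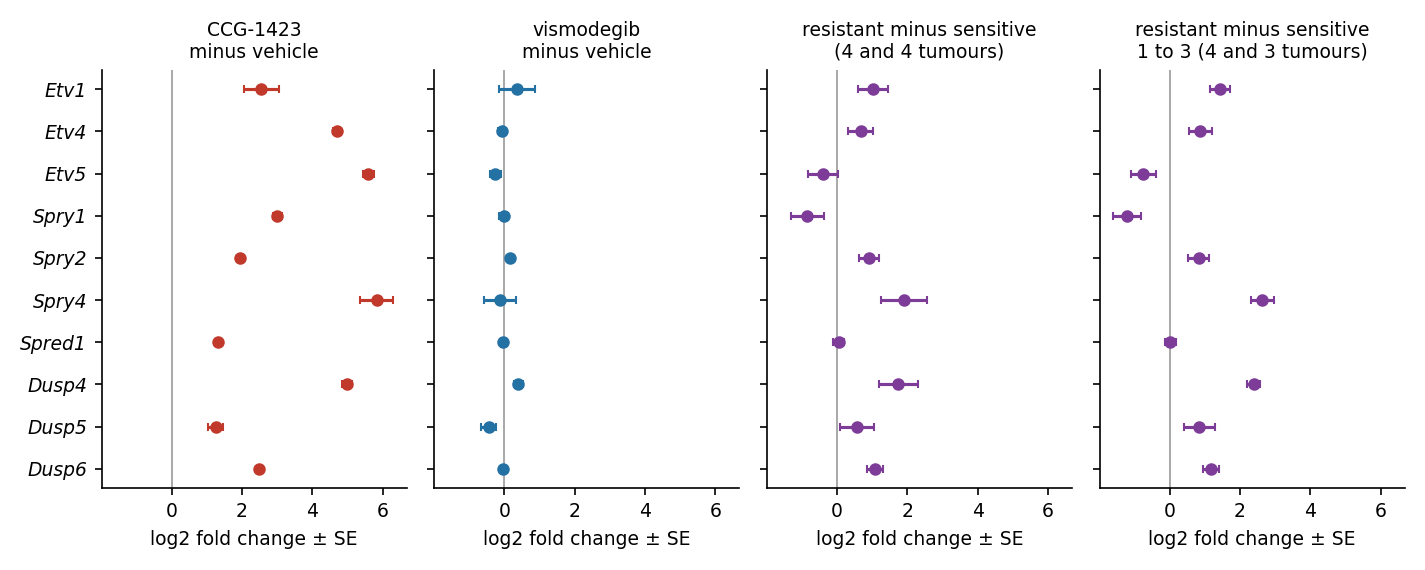
Log2 fold change (x axis, on log2 of normalized count plus 1) of the 10 genes in 4 comparisons; points are the estimates and bars 1 SE of the limma fit. CCG-1423 lies right of 0 in all 10 genes, vismodegib near 0, and the tumour comparison right of 0 for Spry4, Dusp4, Etv1 and Dusp6 and left of 0 for Spry1 and Etv5, with narrower bars for Spry4 and Dusp4 once sensitive tumour 4 is left out.

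The tumours and the cells were normalized separately and share no libraries. Spry4, Dusp4, Etv1 and Dusp6 were higher with CCG-1423 and higher in resistant tumours than in sensitive tumours 1 to 3. Spry1 had the opposite arrangement, at 3.0 ± 0.13 with CCG-1423 and -1.21 ± 0.39 in those tumours, as had Etv5, at 5.60 ± 0.16 and -0.75 ± 0.35, the latter not called. Spred1 was 1.31 ± 0.04 with CCG-1423 and 0.02 ± 0.16 in the tumours. Whether the effects differ between the tables was not tested.

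Genes whose pattern lay nearest to Etv5 and to Dusp6 were found by the root mean square difference of log2 values. Over the 9 cell libraries, centred on vehicle, the nearest of 10699 genes to Etv5 were Car6 (0.26), Spp1 (0.32) and Tnfsf15 (0.41), and the nearest to Dusp6 were Herpud1 (0.10), Hoxc6 (0.10) and Pim1 (0.10). Over the 8 tumours, centred on their mean, the nearest of 12165 genes to Etv5 were Pigx (0.17), Thap7 (0.18) and Bcap29 (0.23), and to Dusp6 Vmp1 (0.17), Chchd1 (0.23) and Nup210l (0.24). None of the 10 feedback genes was among these. The libraries are the same for all genes, so shared depth and composition enter each such distance.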

How the data were processed

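Both tables hold signal values that the authors made from RNA sequencing: normalized read counts per gene, whole reads divided by 1 factor per library, each table scaled on its own. All values (100%) became whole reads within 0.01 read. TopHat, DESeq and mm9 are named, with no role or version, in the submitters' processing notes; no source used here gives the gene counter or strandedness. The 8 exome samples were not analysed here.

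The 10 genes, the 7 pathway lists, the markers, the motifs and the tests were chosen with earlier results of these data known. limma 3.58.1 in R 4.3.3 was fitted to log2(normalized count + 1) with a variance trend, over all genes that reached 10 in 4 or more of the tumours or 3 or more of the cell libraries. A gene was called at an adjusted p under 0.05 (2-sided, Benjamini-Hochberg over every tested gene). The 8 tumour libraries were fitted together, and so were the 9 cell libraries. Fold changes are on the log2(value + 1) scale, which understates low genes. Of each list, up to 3 called genes of smallest p in each direction could be named. Likeness used genes with a mean of at least 50. edgeR 4.0.16 and DESeq2 1.42.0 were run on the recovered reads, and called 10938 and 10570 genes for CCG-1423 minus vehicle, where limma called 10901. Other alternatives were the pseudocount, the filter, the library scaling, a replicate block and leaving out each library; 2 were added after seeing the data. The scripts were tested on simulated data. Within groups, no pair of libraries agreed within sampling noise.

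Normalized counts of 3 reads, the limit that a count of 0 allows, were 2.45 to 3.40 in the cell and 2.09 to 4.97 in the tumour libraries. Counting intervals are exact, from the binomial split of the reads, and cover counting error only. Chromosome positions were taken from RefSeq promoter windows of GRCm38.p6 and were not joined to the files.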

Additional observations from a re-analysis of the deposited data

Results flagged for a closer look

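In the sensitive tumours, 1 library lay far from the other 3 for 3 of the feedback genes. Each was sensitive tumour 4. Its Spry4 level was 1500.1 normalized counts, and the gap to the nearest other sensitive tumour made up 0.938 of the group's range. Its Dusp4 level was 450.0, with a gap of 0.967 of the range, and its Dusp5 level was 47.6, with a gap of 0.845. Each is above Dixon's 95% critical value for 4 samples. In all, 22 groups of 4 tumours were looked at, the sensitive and the resistant group for each of the feedback genes and for Fgf23, and 3 stood out; chance alone gives about 1 in 20. The 3 genes were read from 1 library and so are not independent. That library already stood apart on the first principal component, and the genes were chosen with these values in view. The 3 flags are therefore a description, and the 1 in 20 is no test of them. The Spry4 and Dusp4 levels lay inside the range of the resistant tumours, as did the Dusp5 level.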

How the results depend on the processing

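For CCG-1423 against vehicle and against vismodegib, all 10 genes were called higher under each alternative run. For vismodegib against vehicle 0 of the 10 were called except with the same total per library (1, Dusp4); that setting gave 17 pathway genes and 3229 genes in all, against 6 and 703. Fitting only the 2 groups compared gave 11 and 1721, with 8 of the 10 genes tested, and leaving out 1 library gave up to 12 pathway genes and 325 to 1491 genes. In the tumours, the 17 genes called with 8 libraries became 0 with edgeR, a pseudocount of 0.5, the same total per library (with or without Rn45s and Lars2) and the replicate block, and 1630 with DESeq2. The single pathway gene called became 0 in each of these and with a pseudocount of 5, and 9 with DESeq2, which called 2 of the 10 genes. Leaving out 1 tumour gave 0 to 5 of the 10 genes, 0 to 39 pathway genes and 0 to 6184 genes, and each of the higher values came only without sensitive tumour 4. edgeR without that tumour gave 5, 38 and 6086. The cause of these shifts was not tested. Replicate numbers did not pair the samples: deviations of same-numbered tumours correlated at -0.15 to 0.12 and of same-numbered cell libraries at -0.04 to 0.04. The replicate block left 10, 0 and 10 of the feedback genes called in the 3 cell comparisons and 0 in the tumours. The fitted fold changes of Spry4 and Etv1 in the cells rest on few reads and move with the pseudocount: at 5, CCG-1423 minus vehicle was 4.15 and 1.5. No result changed sign with a call. Depth limited Etv1 and Spry4 in vehicle and vismodegib cells.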
